A study of Mus musculus with 32 samples.

Results

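Complement components and receptors, 10 genes in all, were followed in microglia sorted from mice whose microglia had been depleted and had grown back, and in microglia from mice with no depletion. These members are the 3 chains of C1q (C1qa, C1qb and C1qc), the components C3, C4b and Cfb, the receptors C3ar1 and C5ar1, and the integrin subunits Itgam and Itgb2. They were taken by gene symbol from 2 tables of estimated transcript counts, which were summed per gene. All 10 were listed among the 13377 genes of the female table and the 11999 genes of the male table.

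All 32 libraries are microglia isolated by fluorescence-activated cell sorting at day 14, and the genotype given for each of them is Cx3Cr1-Cre;Rosa26-iDTR. This cross puts a diphtheria toxin receptor into cells that have expressed Cre from the Cx3cr1 locus, which is active in microglia and in other mononuclear phagocytes. Per the series' design, mice received tamoxifen and then diphtheria toxin for a transient depletion. The libraries without depletion are called resident and those with depletion repopulated, each with no fracture or with fracture. Sample descriptions name the resident libraries Wt or WT although the genotype given is the same, so which alleles the resident mice carried, and whether they received either agent, is not settled by the labels. In females there were 4 resident and 3 repopulated libraries without fracture, and 4 resident and 4 repopulated libraries with fracture. In males there were 3 resident and 2 repopulated libraries without fracture, and 5 resident and 7 repopulated libraries with fracture. Female and male libraries were prepared with different kits, so sex and library preparation cannot be told apart, and the tables were analysed separately. The labels do not say whether replicates came from separate animals, so p-values measure the spread between these libraries only.

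Complement is a cascade of blood and tissue proteins that marks surfaces for removal. C1q, a bundle of A, B and C chains, starts the classical pathway, in which C4 and C2 are cleaved to make an enzyme that cleaves C3. Factor B, the product of Cfb, forms the corresponding enzyme of the alternative pathway, and C3 fragments left on a surface are bound by complement receptor 3, the pair of Itgam (CD11b) and Itgb2 (CD18). In the central nervous system microglia are a main source of C1q, and complement takes part in the removal of synapses and debris.

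The sorted cells carried the markers of their label. All 11 microglial markers were listed in both tables, with summed levels of 44100 to 55100 CPM (counts scaled to library size with TMM factors) in females and 50200 to 65200 CPM in males. Their sum in males without fracture was 59400 to 62200 CPM in resident and 51800 to 53200 CPM in repopulated libraries, and in the other 3 comparisons the sums overlapped. Of the 11 markers, 1 passed the edgeR test upward and 2 downward in females without fracture, 0 and 1 in females with fracture, 0 and 4 in males without and 0 and 2 in males with fracture. P2ry12, a purine receptor of microglia, was at 3770 to 6660 CPM in resident and 2780 to 3110 CPM in repopulated female libraries without fracture, and at 6860 to 7650 against 3200 to 3450 CPM in the male ones. None of 8 T and NK cell markers was listed, and of 10 neutrophil markers only Csf3r, which microglia also express. Total counts per library were 16438827 to 18654165 in females and 5722993 to 33697535 in males. A list of 14 markers of infiltrating macrophages, 10 of them listed in females and 11 in males, moved with repopulation. Its sum was 592 to 1070 CPM in resident and 1380 to 2400 CPM in repopulated female libraries without fracture, and 698 to 738 against 1700 to 2060 CPM with fracture. In males it was 392 to 482 against 1080 to 2140 CPM without fracture, and 499 to 1080 against 836 to 1990 CPM with fracture. Of its listed markers, 5 passed the edgeR test upward in females without and 5 with fracture. In males 4 did so without and 2 with fracture, and none passed downward. The defining monocyte markers Ccr2, Ly6c2 and Chil3 were not listed in either table, and Lyz2 supplied most of each sum. For these, as for the T, NK cell and neutrophil markers, being unlisted does not show absence. Listing took at least 10 counts in at least 8 female or 9 male libraries. A marker confined to the 7 repopulated female libraries could not be listed. One confined to the 9 repopulated male libraries could be listed only if all of them reached that count. The border macrophage list moved with repopulation as well, at a low level. Of its 8 markers 4 were listed in females, with sums of 2.06 to 6.48 CPM in resident and 6.03 to 40.8 CPM in repopulated libraries without fracture and 0.941 to 4.48 against 22.3 to 66 CPM with fracture. In males 5 were listed, with sums of 5.46 to 11 against 5.55 to 75.3 CPM without and 3.54 to 11 against 10.4 to 80.6 CPM with fracture. All listed ones had positive differences in these comparisons, and 1 passed the edgeR test, Ms4a7 in females with fracture, which the infiltrating macrophage list also holds. Of 7 B cell markers Ighm, Ighd and Cd79b were listed, and their sum went the other way, from 489 to 625 CPM in resident to 343 to 376 CPM in repopulated female libraries without fracture. The part of these cells in the results below was not tested. In such bulk libraries more cells of a type and more RNA per cell cannot be told apart.

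In the GRCm38 assembly the C1q genes lie side by side on the minus strand of chromosome 4, C1qb at chr4:136880129-136886187, C1qc at chr4:136889804-136893065 and C1qa at chr4:136895917-136898803, a span of 18675 bases. C4b (chr17:34728380-34743882) and Cfb (chr17:34856374-34862518) lie on the minus strand of chromosome 17 within 134139 bases, and C3 lies farther along it at chr17:57203970-57228136. Itgam (chr7:128062640-128118491, plus strand) and C5ar1 (chr7:16246743-16259540, minus strand) are on chromosome 7. Itgb2 is at chr10:77530252-77565708 on the plus strand and C3ar1 at chr6:122847138-122856161 on the minus strand.

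The bases just upstream of 4 members are printed because C1qb and C1qc moved together over the libraries, whereas C3 varied far more than they did and Itgam rose in 1 male comparison. They are from RefSeq (GRCm38.p6), 5′ to 3′ on the strand of the gene, and bases that GENCODE M21 places in an exon are left out, which removed the 151 bases nearest the RefSeq start of C1qc. C1qa, C4b, Cfb and Itgb2 had no entry among the promoters at hand, and no C5ar1 window was examined. The matches below therefore do not describe the members as a set. Capitals mark matches, on either strand, to GAGGAA (PU.1-like) or TTGCNNAA (C/EBP-like).
C1qb, chr4:136886201-136886450, minus strand: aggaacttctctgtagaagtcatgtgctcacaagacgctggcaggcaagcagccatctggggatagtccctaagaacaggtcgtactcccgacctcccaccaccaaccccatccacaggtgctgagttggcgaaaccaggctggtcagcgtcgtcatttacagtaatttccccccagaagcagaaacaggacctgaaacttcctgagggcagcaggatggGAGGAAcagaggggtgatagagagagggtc
C1qc, chr4:136893066-136893164, minus strand: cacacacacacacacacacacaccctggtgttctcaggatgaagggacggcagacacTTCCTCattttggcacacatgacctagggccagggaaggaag
Itgam, chr7:128062390-128062639, plus strand: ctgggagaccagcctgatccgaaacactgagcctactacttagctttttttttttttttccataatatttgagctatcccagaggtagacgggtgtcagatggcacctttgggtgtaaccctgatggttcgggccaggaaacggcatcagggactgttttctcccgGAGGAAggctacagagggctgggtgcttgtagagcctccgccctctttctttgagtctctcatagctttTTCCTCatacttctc
C3, chr17:57228137-57228386, minus strand: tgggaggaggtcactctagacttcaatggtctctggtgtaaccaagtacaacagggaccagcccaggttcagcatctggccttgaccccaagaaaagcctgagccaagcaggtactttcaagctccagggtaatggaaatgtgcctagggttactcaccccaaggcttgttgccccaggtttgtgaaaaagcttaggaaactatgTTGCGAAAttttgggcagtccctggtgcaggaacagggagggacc

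The letters GAGGAA stood 30 bases before the start in C1qb, 193 bases before it in C1qc, and 84 and 15 bases before it in Itgam. They were absent from the C3 window. Over 32536 promoters in the same table, 23.4% of 250-base windows held GAGGAA, and 9.93% of windows cut as for C1qc did. The C3 window alone of the 4 held TTGCNNAA, at 45 bases before the start, a match that 9.57% of promoters held. No window of the 4 held GAAANNGAA (interferon-response-like), TTCNNNGAA (STAT-like) or TATAAA, which 7.15%, 7.04% and 12.3% of 250-base promoter windows held. The window of C3ar1, 246 bases and not printed, held TATAAA 235 bases before the start, as 12.2% of windows cut alike did. It held neither GAGGAA nor any of the other letters named here. C3ar1 also varied little within groups, with an SD of log2 CPM of 0.10 in females. Any link of these letters to the level or spread of a gene was not tested. A match describes letters and not a bound site.

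Levels between genes were compared as CPM per kilobase of the listed transcripts. The C1q chains stood above the other members. In resident female libraries without fracture the level was 6490 ± 325 CPM per kilobase for C1qb, 4010 ± 117 for C1qc and 2320 ± 81.3 for C1qa (SD, n = 4). In the same libraries Itgam was at 319 ± 23.1, Itgb2 at 306 ± 34.7, C5ar1 at 130 ± 14.1 and C3ar1 at 124 ± 11.8 CPM per kilobase (SD, n = 4). Itgam and Itgb2, and likewise C5ar1 and C3ar1, did not differ beyond their spread. C4b, Cfb and C3 were lowest, at 29.3 ± 23.4, 17.4 ± 15.6 and 6.88 ± 7.78 CPM per kilobase (SD, n = 4), with spreads that overlapped each other. In male resident libraries without fracture the C1q chains were again on top, at 8820 ± 1610 for C1qb, 8480 ± 1430 for C1qc and 4970 ± 420 CPM per kilobase for C1qa (SD, n = 3). C4b, C3 and Cfb were each at or under 1.80 CPM per kilobase in every one of those libraries.

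In females, and in males without fracture, repopulated microglia carried more RNA of those C1q chains that passed the test, by 1.22-fold to 1.30-fold. Without fracture, C1qa and C1qb rose in females and C1qa rose in males, and with fracture C1qb rose in females. C1qc did not pass the test in any of the 4 comparisons. All 12 differences, 3 chains in 4 comparisons, were above 0. The chains varied together over the same libraries (Pearson's r of 0.87 to 0.96), so these are not 12 separate findings. Over all genes, 6368 and 6686 of 13377 differences were above 0 in females without and with fracture. In males 5662 and 5897 of 11999 were.

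C1qa encodes the A chain. In females without fracture its level was 2417, 2310, 2517 and 2407 CPM in the resident libraries and 3046, 2955 and 2980 CPM in the repopulated libraries. The groups did not overlap. The difference was a 1.24-fold rise (log2 difference 0.31 ± 0.08 SE, edgeR adjusted p = 0.049). The call was lost in 6 of 7 fits that left out 1 library, at adjusted p values of 0.087 to 0.16, and kept without resident replicate 3. With the most abundant transcript alone the adjusted p was 0.059.
In females with fracture the resident libraries stood at 2413, 2389, 2507 and 2620 CPM and the repopulated libraries at 2971, 2784, 2525 and 3461 CPM. The lowest repopulated library, replicate 3, lay below the highest resident one, and the log2 difference was 0.24 (edgeR adjusted p = 0.10). Without that library the log2 difference was 0.31 with an edgeR adjusted p of 0.033.
In males without fracture C1qa was at 5661, 5008 and 4830 CPM in resident and 5921 and 7469 CPM in repopulated libraries. It rose 1.30-fold (log2 difference 0.37 ± 0.11 SE, edgeR adjusted p = 0.043). The call rested on repopulated replicate 2, without which the log2 difference was 0.20 (edgeR adjusted p = 0.60), and was lost as well without resident replicate 2 (0.37, adjusted p = 0.11) or resident replicate 3 (0.34, adjusted p = 0.13). It was also lost with library totals as the scaling (edgeR adjusted p = 0.061), with the most abundant transcript alone (0.060), with only the groups compared (0.12) and with the replicate block (0.061). With fracture the male resident libraries ran from 4828 over a median of 5291 to 6426 CPM and the repopulated ones from 5482 over 6046 to 6433 CPM. These ranges overlapped, and the 1.09-fold difference did not pass (edgeR adjusted p = 0.44).

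C1qb, the B chain, had the most reads per kilobase. Its female levels without fracture were 7418, 6710, 7309 and 6811 CPM in resident and 8885, 8517 and 8508 CPM in repopulated libraries. The repopulated libraries were all higher, with a 1.22-fold rise (log2 difference 0.29 ± 0.07 SE, edgeR adjusted p = 0.037). Leaving out any repopulated library, or resident replicate 2 or 4, gave adjusted p values of 0.073 to 0.14. With fracture the female resident libraries were at 6748, 6647, 7024 and 7301 CPM and the repopulated ones at 8932, 8571, 7639 and 9792 CPM. These groups were separate too, and C1qb rose 1.26-fold (log2 difference 0.33 ± 0.06 SE, edgeR adjusted p = 0.014). Without resident replicate 1 the adjusted p was 0.050 and the call was lost.
Male C1qb was at 11560, 9041 and 8198 CPM in resident and 10850 and 13480 CPM in repopulated libraries without fracture. Resident replicate 1 overlapped the repopulated pair, and the 1.27-fold difference did not pass (edgeR adjusted p = 0.14). Without that library it passed, at a log2 difference of 0.50 (edgeR adjusted p = 0.022). With fracture male C1qb ran from 8262 over a median of 9107 to 11640 CPM in resident and from 10740 over 11350 to 12480 CPM in repopulated libraries. One resident library, replicate 3, reached into the repopulated range. The log2 difference was 0.27 ± 0.09 SE (edgeR adjusted p = 0.074), and 0.35 (adjusted p = 0.018) without that library. DESeq2 called it, at 0.28 (DESeq2 adjusted p = 0.026).

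C1qc, the C chain, differed least. In females without fracture it was at 4729, 4665, 4966 and 4905 CPM in resident and 5368, 5496 and 5807 CPM in repopulated libraries. With fracture the female values were 5055, 4916, 5282 and 4865 CPM against 5935, 5625, 5313 and 6482 CPM. Repopulated libraries were above resident ones in both comparisons without overlap, by 1.15-fold (edgeR adjusted p = 0.090) and 1.16-fold (edgeR adjusted p = 0.057). The second difference passed without repopulated replicate 3, at 0.26 on the log2 scale (edgeR adjusted p = 0.032). In males the groups overlapped. Resident libraries without fracture ran from 8758 to 12100 CPM, and the repopulated pair stood at 10040 and 12520 CPM, 1.11-fold apart in the fit (edgeR adjusted p = 0.65). Without repopulated replicate 2 the log2 difference turned to -0.02. With fracture male C1qc ran from 8846 over a median of 9633 to 12350 CPM in resident and from 9721 over 10970 to 11840 CPM in repopulated libraries, 1.07-fold apart in the fit (edgeR adjusted p = 0.69).

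**Figure D1:**
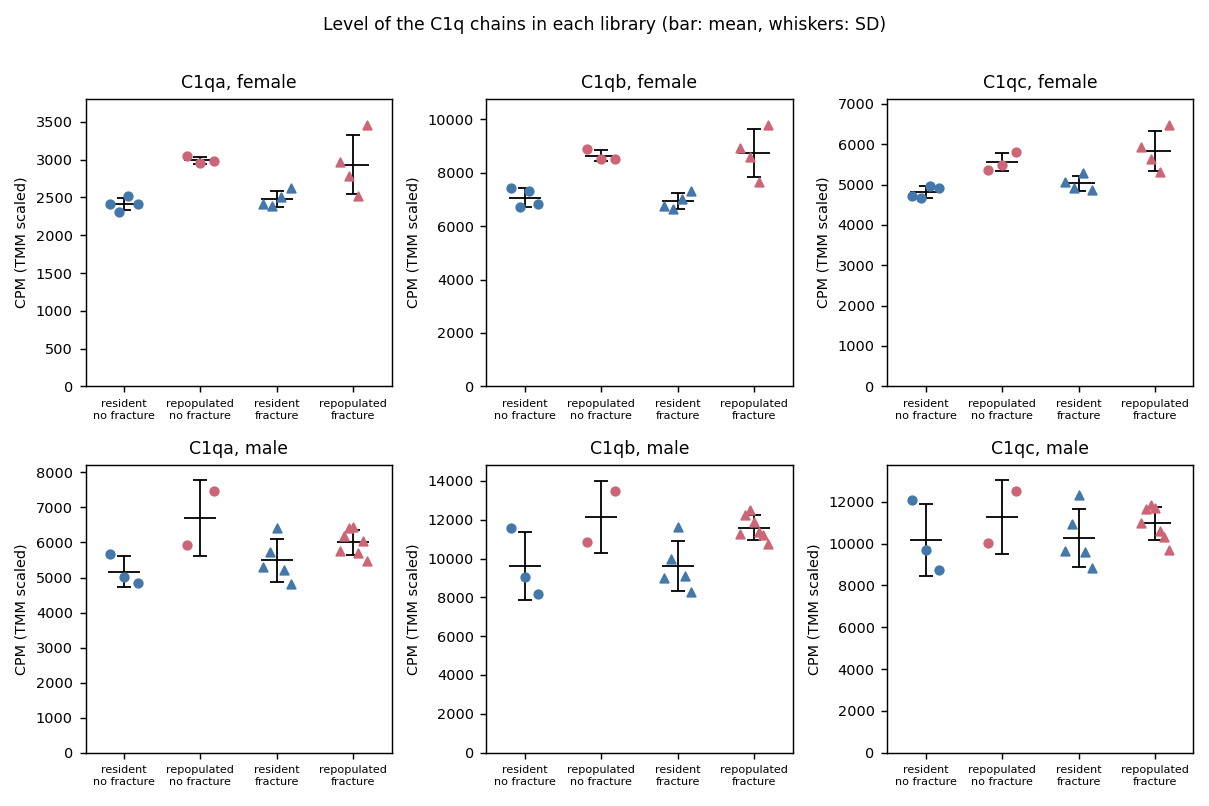
Level of C1qa, C1qb and C1qc in each library, as TMM-scaled CPM on axes that start at 0, with females in the top row and males in the bottom row. Blue points are resident and red points repopulated libraries, circles without and triangles with fracture, bars are means and whiskers SD. In females without fracture the 3 repopulated libraries lie above all 4 resident ones for each chain, whereas in males the groups of C1qb and C1qc overlap.

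The proportions of the chains shifted by a few percentage points at most in group means. Of the summed C1q level per kilobase in females, C1qb made up 49.2% to 51.4% as group means, C1qc 30.0% to 32.4% and C1qa 17.9% to 18.6%. In males C1qb made up 39.5% ± 1.02 in resident (SD, n = 3) and 41.4% ± 0.139 in repopulated libraries without fracture (SD, n = 2). The C1qc share in the same male libraries was 38.0% ± 0.545 and 34.8% ± 0.0366, and with fracture it was 37.7% ± 0.363 in resident (SD, n = 5) and 35.7% ± 0.659 in repopulated libraries (SD, n = 7). The male C1qc share ran from 37.3% to 38.5% over all resident libraries and from 34.7% to 36.5% over all repopulated ones. These ranges did not overlap. The male C1qb share with fracture ran from 38.6% to 39.4% in resident and from 40.7% to 42.5% in repopulated libraries, also without overlap. The shares were not tested.

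C3, C4b and Cfb behaved unlike the C1q chains. In males without fracture all 3 rose from a few CPM in resident libraries to between 75.5 and 258 CPM in repopulated ones. In females and in males with fracture the point differences were 1.76-fold to 5.12-fold upward, but they did not pass the edgeR test, and single libraries of a group spread widely. DESeq2 called C3 and C4b in males with fracture. Cfb and C4b counts carry an added uncertainty. Of the 100-base windows in Cfb transcripts, 75.1% are shared with the readthrough gene Gm20547, and 15.6% of C4b windows are shared with C4a, so the counting could have split reads between these genes. Neither Gm20547 nor C4a was listed in the tables used here.

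C3 is the central component, cleaved in every activation route. In resident female libraries without fracture it was at 30.3, 0.398, 92.4 and 18.2 CPM, and in repopulated ones at 132, 89.1 and 91.3 CPM. The resident libraries ranged from 7 to 1668 counts, and 1 of them reached the repopulated level. The 2.95-fold difference did not pass (edgeR adjusted p = 0.45). With fracture, female resident libraries lay at 11.1, 13.2, 12.5 and 22.2 CPM and repopulated ones at 57.2, 67.6, 81.8 and 70.1 CPM. These groups were far apart, yet the 4.68-fold difference did not pass in the fit over all 4 groups (log2 difference 2.23 ± 0.86 SE, edgeR adjusted p = 0.25). In a fit of only these 8 libraries it passed, with a log2 difference of 2.21 (edgeR adjusted p = 0.00025).
Male C3 without fracture was at 1.91, 9.24 and 2.13 CPM in resident and 81.0 and 75.5 CPM in repopulated libraries. The groups were separate, with a 20.8-fold rise (log2 difference 4.38 ± 1.05 SE, edgeR adjusted p = 0.019). Leaving out either repopulated library, or resident replicate 1 or 3, gave adjusted p values of 0.057 to 0.086 at log2 differences of 3.97 to 4.41. With fracture male C3 ran from 0.764 over a median of 5.81 to 20.2 CPM in resident and from 17.7 over 31.4 to 78.9 CPM in repopulated libraries. Resident replicate 4, at 20.2 CPM, overlapped the repopulated group. The log2 difference was 2.36 ± 0.67 SE (edgeR adjusted p = 0.062), and 3.12 (adjusted p = 0.018) without that library. DESeq2 called it, at 2.33 (DESeq2 adjusted p = 0.0072).

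C4b encodes a form of C4, the component that C1-bound protease cleaves first. Resident female libraries without fracture were at 161, 31.4, 283 and 73.7 CPM and repopulated ones at 281, 216 and 227 CPM. Resident replicate 3 was as high as the repopulated libraries, and the 1.76-fold difference did not pass (edgeR adjusted p = 0.64). With fracture the female values were 82.9, 128, 68.3 and 65.1 CPM against 155, 210, 115 and 504 CPM. The lowest repopulated library overlapped the resident group, and the 2.86-fold difference did not pass (edgeR adjusted p = 0.28).
In males without fracture C4b stood at 5.66, 8.56 and 7.19 CPM in resident and 258 and 147 CPM in repopulated libraries. This 29.2-fold rise (log2 difference 4.87 ± 0.93 SE, edgeR adjusted p = 0.0047) passed under all 14 alternatives run. Male C4b with fracture ran from 6.08 over a median of 14.8 to 40.6 CPM in resident and from 19.7 over 67 to 242 CPM in repopulated libraries. The ranges overlapped, and the log2 difference of 2.15 ± 0.58 SE lay just outside the threshold (edgeR adjusted p = 0.0502). Without repopulated replicate 1 it was 2.33 (adjusted p = 0.016) and without resident replicate 1 it was 2.56 (adjusted p = 0.036). DESeq2 called it, at 2.13 (DESeq2 adjusted p = 0.0022).

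Cfb encodes factor B, the protease precursor of the alternative pathway. Female resident libraries without fracture were at 65.9, 1.59, 88.5 and 21.4 CPM and repopulated ones at 168, 91.5 and 64 CPM. These overlapped, and the 2.43-fold difference did not pass (edgeR adjusted p = 0.71). With fracture, Cfb had no count in 2 of the 4 resident female libraries and was at 6.74 and 14.2 CPM in the other two, against 18.2, 31.9, 19.1 and 31.9 CPM in repopulated libraries. The groups did not overlap, but the 4.82-fold difference did not pass (edgeR adjusted p = 0.49).
In males without fracture the resident libraries held 0, 14 and 25 Cfb counts, or 0, 2.35 and 0.988 CPM, and the repopulated libraries 1519 and 1282 counts, or 130 and 116 CPM. The fitted rise was 157-fold (log2 difference 7.29 ± 1.82 SE, edgeR adjusted p = 0.025), a size that rests on those few resident counts. Of the listed male transcripts, Cfb-204 reached 10 counts in 2 of 8 resident and all 9 repopulated libraries. Cfb-202 did so in 3 and 7, and Cfb-206 in 6 and 9. Cfb-204 and Cfb-202 thus entered the table largely through the group where Cfb is high, which limits what the male Cfb call can show. Leaving out any of the 5 libraries in turn gave log2 differences of 6.46 to 7.95 with adjusted p values of 0.057 to 0.095. With the most abundant transcript alone the adjusted p was 0.098. With fracture male Cfb ran from 1.29 over a median of 6.12 to 33.8 CPM in resident and from 6.40 over 18.4 to 119 CPM in repopulated libraries, and did not pass (edgeR adjusted p = 0.33).

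**Figure D2:**
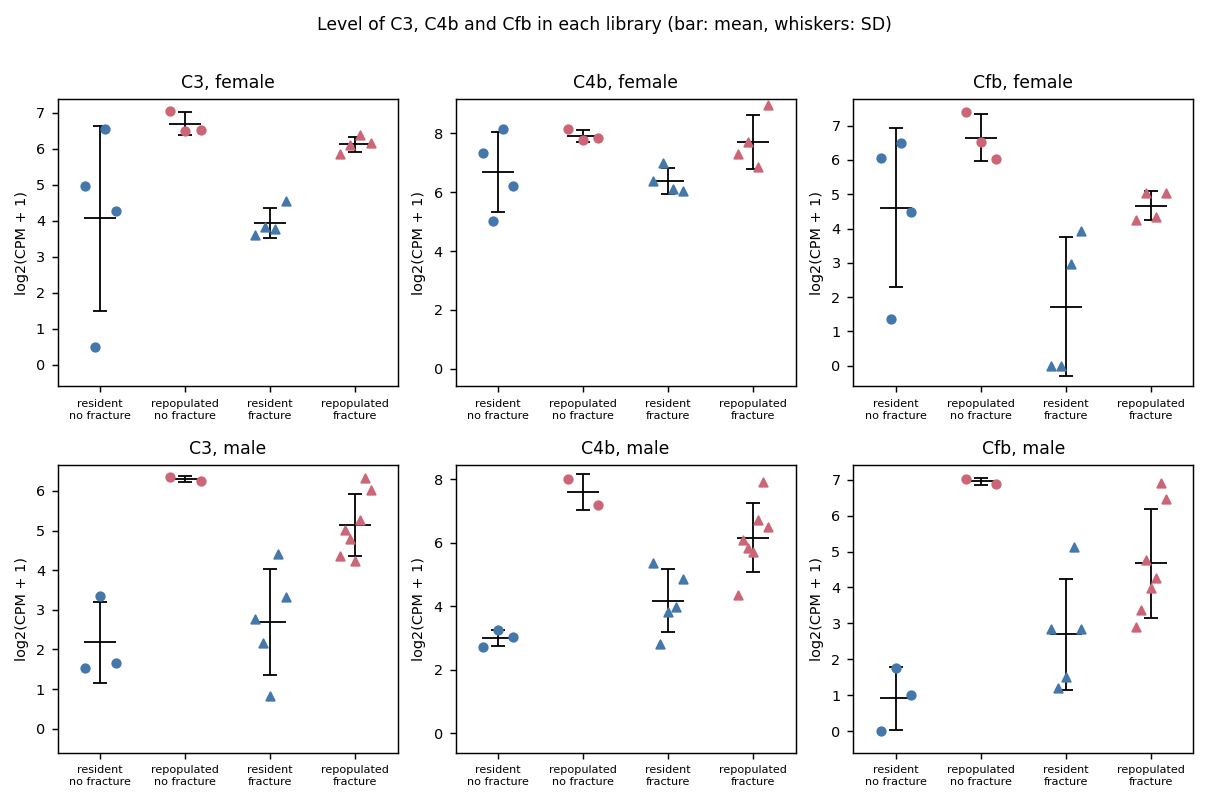
Level of C3, C4b and Cfb in each library as log2(CPM + 1), females above and males below. Colours and symbols mark depletion and fracture as blue resident, red repopulated, circles no fracture and triangles fracture, with means as bars and SD as whiskers. Male resident libraries without fracture lie under 10 CPM for all 3 genes and the male repopulated pair between 75.5 and 258 CPM, while female resident libraries without fracture span nearly the whole axis for C3 and Cfb.

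The spread of these 3 genes between libraries of 1 group set them apart from the other members. In females the SD of log2 CPM within groups was 1.72 for C3, 0.90 for C4b and 2.41 for Cfb, against a median of 0.24 over 9974 genes with a mean of at least 5 CPM. For C1qc, C1qb and C1qa it was 0.077, 0.093 and 0.11, values that 1.36%, 3.66% and 6.92% of those genes fell under. In males the SD was 1.18 for C3, 0.97 for C4b and 1.70 for Cfb, against a median of 0.27 over 9511 genes. Itgb2 had 0.080 there, under which only 0.641% of the genes lay.

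The anaphylatoxin receptors did not pass the test in any comparison. C3ar1 binds C3a, the small fragment released from C3. Female C3ar1 without fracture was at 578, 531, 566 and 466 CPM in resident and 630, 628 and 588 CPM in repopulated libraries. The groups did not overlap, but the 1.15-fold difference did not pass (edgeR adjusted p = 0.22). Male C3ar1 without fracture was at 494, 452 and 452 CPM against 512 and 626 CPM, a 1.22-fold difference without overlap that did not pass (edgeR adjusted p = 0.27). With fracture the fold was 1.04 in females (edgeR adjusted p = 0.83) and 0.96 in males (edgeR adjusted p = 0.84), and the groups overlapped.

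C5ar1, the receptor for the C5 fragment C5a, was the only member with a negative difference in females without fracture. Its resident libraries were at 289, 251, 217 and 252 CPM and the repopulated ones at 193, 199 and 214 CPM. Every repopulated library was lower, and the difference of -0.32 ± 0.11 SE on the log2 scale did not pass (edgeR adjusted p = 0.14). Without resident replicate 3 it passed, at -0.39 (edgeR adjusted p = 0.047). In males without fracture C5ar1 was at 339, 242 and 324 CPM against 214 and 325 CPM (log2 difference -0.16, edgeR adjusted p = 0.72), and without repopulated replicate 1 its sign turned to 0.10. With fracture it was at 224 to 247 against 222 to 297 CPM in females (1.03-fold, edgeR adjusted p = 0.93) and at 287 to 356 against 235 to 354 CPM in males (log2 difference -0.13, edgeR adjusted p = 0.68), with overlap in both. The related receptor C5ar2, which was no member, fell in females without fracture, from 82.8 to 97.0 CPM in resident to 58.9 to 75.6 CPM in repopulated libraries (log2 difference -0.44 ± 0.10 SE, edgeR adjusted p = 0.039).

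Itgb2, the beta subunit that complement receptor 3 shares with other leukocyte integrins, rose in 3 of the 4 comparisons. Without fracture its female levels were 882, 850, 1058 and 831 CPM in resident and 1197, 1172 and 1111 CPM in repopulated libraries. It rose 1.28-fold (log2 difference 0.36 ± 0.08 SE, edgeR adjusted p = 0.029). Leaving out repopulated replicate 1 or 2, or resident replicate 1, 2 or 4, gave adjusted p values of 0.063 to 0.11. Female Itgb2 with fracture was at 870, 793, 870 and 909 CPM against 1131, 1029, 996 and 992 CPM. The groups were separate, with a 1.20-fold difference that did not pass (edgeR adjusted p = 0.073) but did with DESeq2 (DESeq2 adjusted p = 0.046). The largest difference of Itgb2 was in males without fracture, at 731, 822 and 805 CPM in resident and 1190 and 1289 CPM in repopulated libraries. It rose 1.58-fold (log2 difference 0.66 ± 0.08 SE, edgeR adjusted p = 4.7e-05). Male Itgb2 with fracture ran from 764 over a median of 831 to 847 CPM in resident and from 959 over 1014 to 1151 CPM in repopulated libraries. All 7 repopulated libraries were above all 5 resident ones, and Itgb2 rose 1.26-fold (log2 difference 0.33 ± 0.06 SE, edgeR adjusted p = 0.0010). Both male calls held under every alternative run, 14 without and 21 with fracture.

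Itgam, the alpha subunit of complement receptor 3, rose only in males without fracture in these tests. There it was at 885, 1031 and 1029 CPM in resident and 1363 and 1416 CPM in repopulated libraries, a 1.42-fold rise (log2 difference 0.50 ± 0.10 SE, edgeR adjusted p = 0.0022) that held under all 14 alternatives. In males with fracture it ran from 985 over a median of 1148 to 1264 CPM against 1044 over 1145 to 1202 CPM. Those groups lay on top of each other, at 1.01-fold (edgeR adjusted p = 0.96). In females Itgam was at 1355 to 1614 CPM in resident and 1511 to 1638 CPM in repopulated libraries without fracture, and at 1429 to 1718 against 1501 to 1961 CPM with fracture. Neither difference passed (edgeR adjusted p = 0.69 and 0.65). Itgam counts are uncertain to the extent that 65.4% of its 100-base windows are shared with the overlapping gene Gm49368, which was listed. Transcripts Itgam-203 and Itgam-201 took nearly all of its counts, with 57.1% ± 0.885 and 42.2% ± 0.992 in resident female libraries without fracture (SD, n = 4) and 62.4% ± 3.39 and 37.4% ± 3.47 in male repopulated ones (SD, n = 2).

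**Figure D3:**
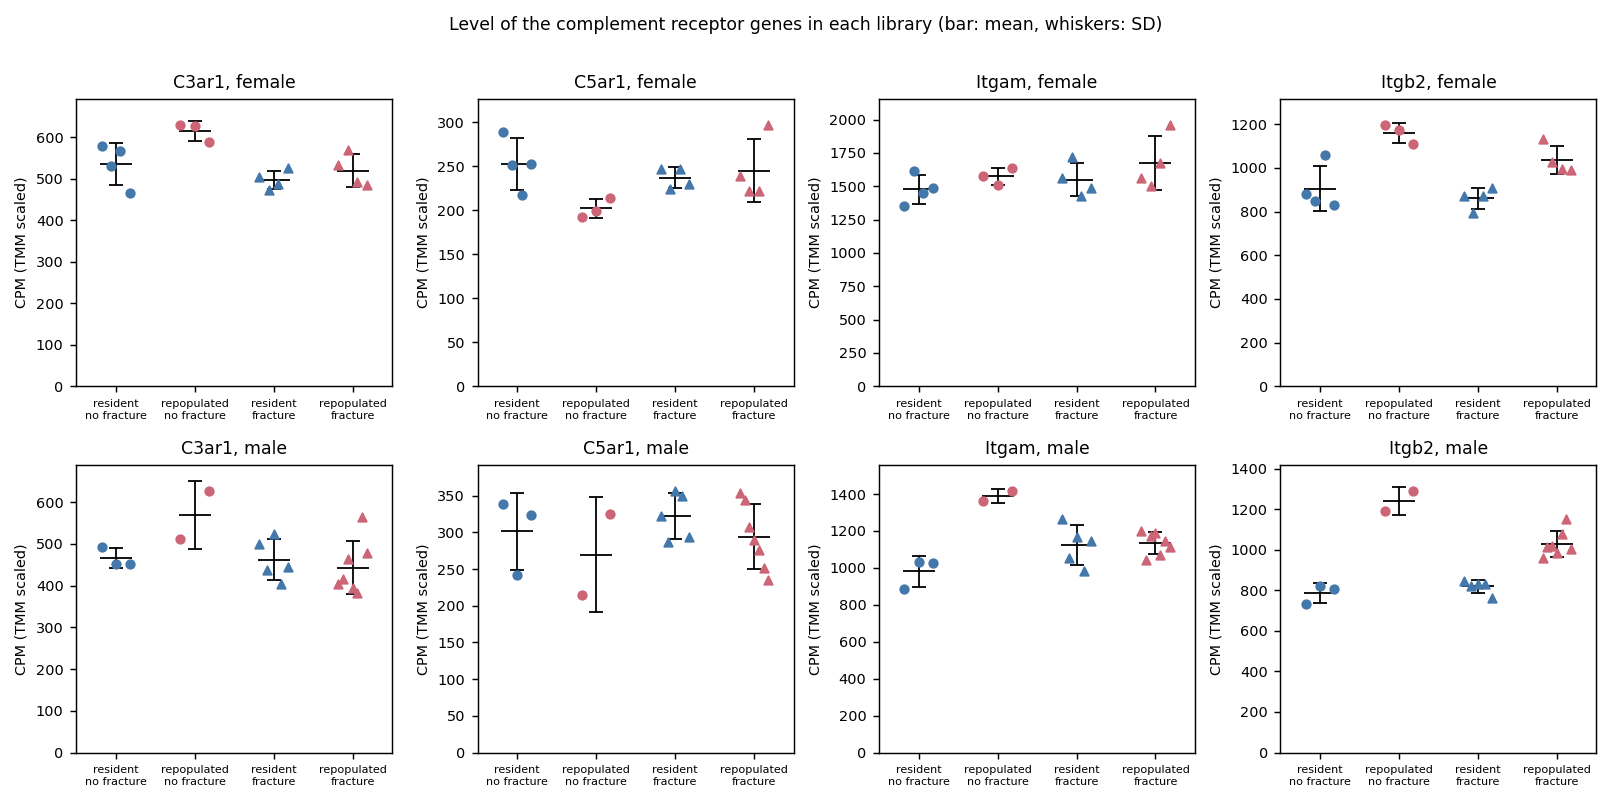
Level of C3ar1, C5ar1, Itgam and Itgb2 in each library as TMM-scaled CPM on axes from 0, females above and males below. Blue marks resident and red repopulated libraries, circles no fracture and triangles fracture, bars are means and whiskers SD. Itgb2 in males with fracture shows all 7 repopulated libraries, from 959 CPM, above the 5 resident ones, up to 847 CPM, while the male Itgam groups with fracture coincide.

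Over the members, 3 of 10 rose and none fell in females without fracture, where 2.53% of all genes passed the edgeR test in either direction, 1.56% rose and 0.964% fell. With fracture 1 of 10 rose and none fell in females, against 2.35% of all genes called, 1.27% rising and 1.08% falling. In males 6 of 10 rose and none fell without fracture, against 7.42% called, 4.7% rising and 2.72% falling. The 6 include Cfb, whose listing leaned on the repopulated libraries. With fracture 1 of 10 rose and none fell in males, against 4.91% called, 3.03% rising and 1.88% falling. The median log2 difference of the members was 0.30, 0.26, 0.44 and 0.20 in these 4 comparisons, and that of all genes was -0.019, -0.00023, -0.028 and -0.0049. The female count without fracture depended on single libraries. It was 0 without repopulated replicate 1 or 2 or resident replicate 2 or 4, and 1 without repopulated replicate 3 or resident replicate 1, whereas the log2 differences of the 3 called genes stayed between 0.26 and 0.44. The count over all genes moved as well, from 51 to 612 called over the 7 fits with 1 library left out, against 338 in the full fit. Scaling by library totals moved the median of all genes to -0.11 in females and -0.12 in males without fracture. With that scaling the log2 differences of C1qa, C1qb and Itgb2 in females were 0.22, 0.20 and 0.27 and none passed. The same scaling turned the split of all genes called from 209 higher and 129 lower to 116 and 228 in females without fracture, and from 170 and 145 to 110 and 276 with fracture. In males it turned it from 564 and 326 to 442 and 501 without and from 364 and 225 to 303 and 338 with fracture.

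Members whose libraries did not overlap between groups were read against the same count over all genes. In females without fracture 5 members lay wholly above and 1 wholly below, against 6.87% and 6.44% of all genes. With fracture 5 members lay above and none below, against 6.26% and 5.64%. In males 7 lay above and none below without fracture, where 17% and 18.4% of all genes did so with only 2 repopulated libraries. With fracture 1 lay above and none below, against 2.0% and 1.58%.

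**Figure D4:**
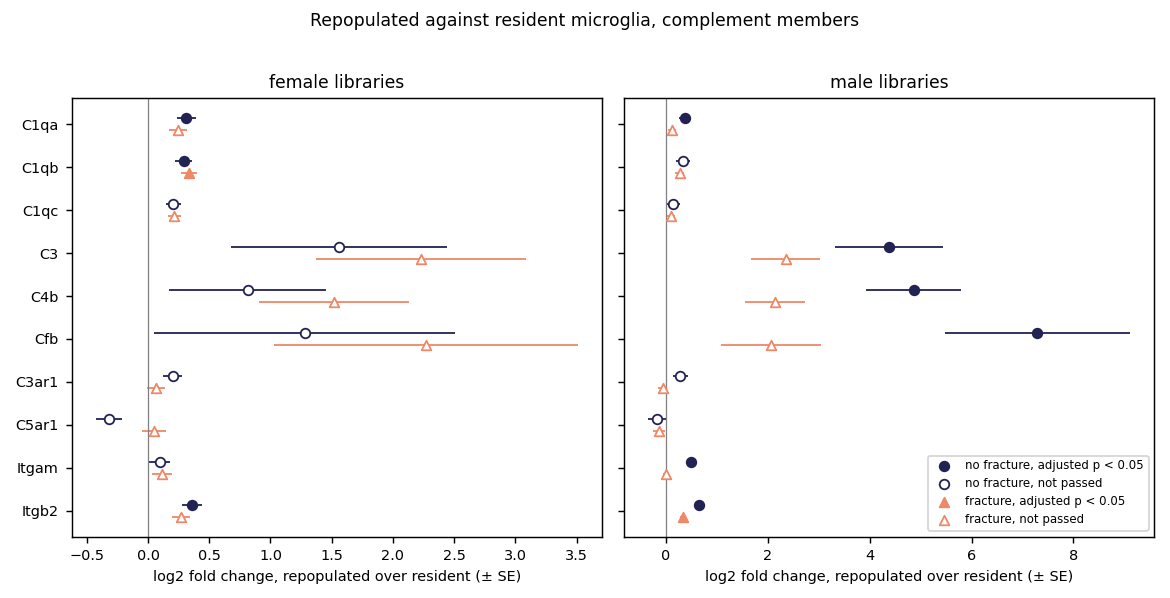
Log2 difference between repopulated and resident libraries for each member with its SE, females left and males right, on axes of different range. Dark circles are comparisons without and orange triangles with fracture, and filled symbols passed an edgeR adjusted p of 0.05. C3, C4b and Cfb in males without fracture stand at 4.38, 4.87 and 7.29, whereas all C1q differences lie between 0 and 0.5.

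No member passed the edgeR test for fracture, in resident or repopulated microglia of either sex. Over all genes the share called was 0.0% in both female comparisons and 0.00833%, 1 gene, in each male one. At an unadjusted p of 0.05, 1 member in female resident, 2 in female repopulated, 2 in male resident and 3 in male repopulated libraries passed. Over all genes, 659 and 1410 of 13377 female and 511 and 995 of 11999 male ones did so, in the same order. The log2 differences of the C1q chains lay between -0.16 and 0.09 in all 4 fracture comparisons. DESeq2 called none in the first 3 and 2, Itgam and Itgb2, in male repopulated libraries, at log2 differences of -0.31 (DESeq2 adjusted p = 0.035) and -0.28 (DESeq2 adjusted p = 0.024). Over all genes DESeq2 called 28 higher and 30 lower there. In that comparison the edgeR values were -0.29 ± 0.08 SE for Itgam (adjusted p = 0.33) and -0.27 ± 0.07 SE for Itgb2 (adjusted p = 0.31). All 7 libraries with fracture lay below both libraries without it for these 2 genes, against 3.52% of all genes, and no member lay wholly above, against 3.57%. The 2 libraries without fracture are the same ones that gave the repopulation differences above.

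In female repopulated libraries C3, C3ar1 and Cfb lay wholly lower with fracture, against 6.2% of all genes, and C5ar1 wholly higher, against 6.81%. C3 ran from 57.2 to 81.8 CPM with fracture and from 89.1 to 132 CPM without (log2 difference -0.59, edgeR adjusted p = 0.86). Cfb ran from 18.2 to 31.9 CPM with and from 64 to 168 CPM without fracture (log2 difference -2.09, edgeR adjusted p = 0.58). C3ar1 had the smallest unadjusted p among the members there (0.0068), with a log2 difference of -0.24 ± 0.08 SE (edgeR adjusted p = 0.34). In resident microglia no member separated by fracture in either sex, where 1.31% of all female genes lay wholly above and 1.78% wholly below, and 2.36% and 2.17% of male genes. The resident differences of Cfb were -3.08 in females and 3.61 in males on the log2 scale, where 2 female libraries with fracture and 1 male library without it had no count (edgeR adjusted p = 0.94 and 1.00). C3 stood at -1.26 and 1.03 and C4b at -0.67 and 1.55 in the same order, and the receptors and integrin subunits lay between -0.11 and 0.20 there. Among the male repopulated libraries C3, C4b and Cfb were at -0.99, -1.17 and -1.61, C3ar1 at -0.36 and C5ar1 at 0.13, and in the female ones C4b was at 0.03, C5ar1 at 0.28, Itgam at 0.09 and Itgb2 at -0.16.

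Whether repopulation differences depended on fracture was tested as an interaction, and no member passed in either sex with edgeR, where 0.0% of female and 0.00833% of male genes did. In females 1 member, C5ar1 (0.37 ± 0.15 SE), and in males 4 had an unadjusted p under 0.05. So did 494 of all 13377 female and 886 of all 11999 male genes. The male interaction was -0.49 ± 0.12 SE for Itgam (edgeR adjusted p = 0.34), -0.33 ± 0.10 SE for Itgb2 (edgeR adjusted p = 0.42), -2.72 ± 1.03 SE for C4b (edgeR adjusted p = 0.58) and -5.23 ± 1.97 SE for Cfb (edgeR adjusted p = 0.58). The interactions of the other members ran from -0.14 to 0.99 in females and from -2.02 to 0.03 in males. DESeq2 called Itgam and Itgb2 in this male test and no member in the female one. Over all genes it called 22 higher and 27 lower in males, and 1 and 0 in females. The larger male values without fracture were not shown by edgeR to differ from those with fracture.

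Male titles carry V identifiers in a lower and a higher run, which the labels do not explain. All male libraries without fracture belong to the lower run, so their comparison lies within it. With fracture the lower run holds 3 resident and 3 repopulated libraries and the higher run 2 and 4. Within the lower run Itgb2 was 820 to 847 CPM in resident and 959 to 1017 CPM in repopulated libraries, and within the higher run 764 to 832 against 983 to 1151 CPM. C4b was at 6.08 to 40.6 against 19.7 to 67 CPM in the lower and 14.8 to 28.4 against 51.7 to 242 CPM in the higher run, apart only in the higher. C3 was 0.764 to 5.81 against 19.6 to 31.4 CPM in the lower run and 9.06 to 20.2 against 17.7 to 78.9 CPM in the higher, apart only in the lower. With the run as a term in the model, C3 (log2 difference 2.37, edgeR adjusted p = 0.023) and C1qb (0.30, adjusted p = 0.043) passed beside Itgb2 (0.33, adjusted p = 0.0019).

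Some members varied together over the libraries of a table. As a description over 15 female and 17 male libraries, Pearson's r of log2 CPM was 0.96 and 0.93 for C1qa with C1qb, 0.90 and 0.87 for C1qa with C1qc, and 0.88 and 0.90 for C1qb with C1qc. C3 with C4b stood at 0.84 and 0.86, C3 with Cfb at 0.65 and 0.90, and C4b with Cfb at 0.55 and 0.88. These 3 were not set apart from the C1q chains in females. There C4b had r of 0.76, 0.78 and 0.68 with C1qa, C1qb and C1qc, and C3 had 0.65, 0.69 and 0.59. In males the same values were 0.48, 0.47 and 0.099 for C4b and 0.34, 0.39 and -0.006 for C3. Within female groups C4b was at 0.62 with C1qb and 0.31 with Cfb. After the group means were removed the C1q pairs stayed at 0.66 or more in both tables. The pairs of C3, C4b and Cfb then ran from 0.31 to 0.73 in females and 0.49 to 0.80 in males. Within male groups C1qb and C3 ran in opposite directions, at -0.59, which was not so in females, at 0.33. Itgb2 had r of 0.74 and 0.85 with C3, 0.67 and 0.89 with C4b and 0.71 and 0.84 with Cfb. Within groups these fell to 0.49 and 0.31, 0.32 and 0.51, and 0.50 and 0.54. These points share group, depth and library preparation.

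**Figure D5:**
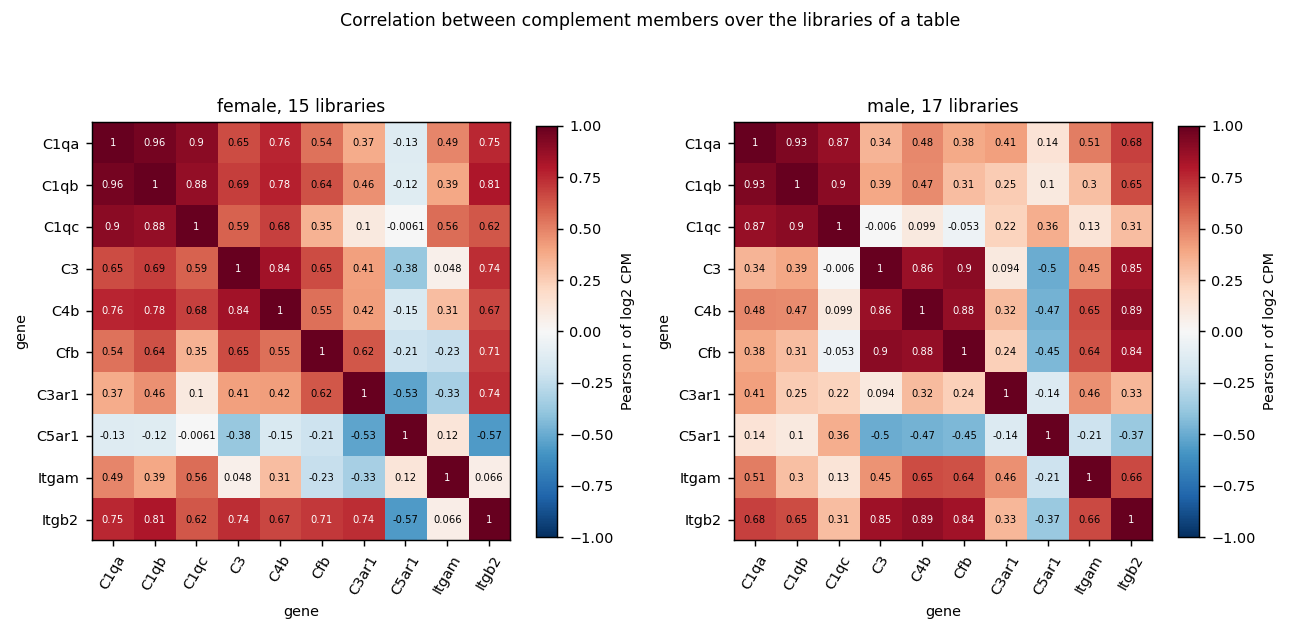
Pearson's r of log2 CPM for each pair of members over 15 female libraries on the left and 17 male libraries on the right, with red for positive and blue for negative values. The C1q chains form a block at 0.87 or more in both tables, and C5ar1 has negative values with C3, C4b, Cfb and Itgb2 in both.

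The genes outside the members most like each of them, ranked by the same r over 9241 female and 9049 male genes, differed between members. For Cfb they were Oas1a (0.95), Ifitm3 (0.93) and Oasl1 (0.92) in females and Gbp2 (0.97), Ifit3b (0.95) and Iigp1 (0.95) in males, which are known as interferon-induced genes. For C3 they were Cd52 (0.94), Adora1 and Itga4 (both 0.92) in females and Cyp4f18 (0.95), Zbp1 and Cybb (both 0.94) in males. For C4b they were Cd244a (0.94), Adora1 (0.90) and Hcar2 (0.89) in females and Trim25 (0.97), Fgl2 and Tpst1 (both 0.95) in males. Itga4 belongs to the infiltrating macrophage list given above. Among the nearest of C1qa were the ribosomal protein genes Rps29 (0.92) and Rps9 (0.91) in females and Rpl23a (0.92) in males. Among the nearest of C1qb were Mcub (0.95) and Apobec3 (0.94) in females and Rpl41, Rpl26 and Aif1 (all 0.93) in males. For C1qc the nearest were Rpl23a (0.88), Armc5 (0.87) and Rps29 (0.86) in females and Cd68, Sparc (both 0.94) and Vkorc1 (0.93) in males. Itgb2 was nearest to Rpl15, Rpl19 and Pkm (all 0.97) in females and to Lamp1 (0.97), Naglu and Tlr2 (both 0.96) in males. C5ar1 was nearest to Apex1 (0.85), Pdia6 and Kdelr1 (both 0.83) in females and to G6pc3 (0.85), Manf (0.82) and Sdf2l1 (0.80) in males, of which Pdia6, Kdelr1, Manf and Sdf2l1 act in the endoplasmic reticulum or the early secretory pathway. C3ar1 was nearest to H2-T22 (0.92), Nceh1 and Sgpl1 (both 0.91) in females and to Prkch, Sulf2 (both 0.81) and Sgpl1 (0.80) in males, so Sgpl1 recurred. Itgam stood at 0.76 with E4f1, Llph and Stk16 in females, the lowest among the members there, and at 0.82 with Lrp12 and 0.80 with Tap2 and Cul4b in males.

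Of 53 other complement genes, 15 were listed in females and 12 in males. In females C5ar2 fell without fracture, as given above, and none of the 15 passed with fracture. Apart from C2, 1 of the 12 in males rose without fracture, and 1 rose and 1 fell with fracture. C2, the classical pathway protease that works with C4, was at 0 to 0.0797 CPM in male resident and 3.27 to 3.41 CPM in repopulated libraries without fracture, and at 0 to 0.487 against 1.34 to 6.74 CPM with fracture. Its 1 listed transcript reached 10 counts in 0 of 8 resident and all 9 repopulated male libraries, so it entered the table through the group where it is high, and its difference is a description. Itgax, which pairs with Itgb2 as complement receptor 4, was at 10.4 to 15.3 against 125 to 149 CPM without fracture (log2 difference 3.43 ± 0.54 SE, edgeR adjusted p = 0.00073). With fracture Itgax was at 15.9 to 25.6 against 25.5 to 124 CPM (log2 difference 1.57 ± 0.35 SE, edgeR adjusted p = 0.014). C1rl, a relative of the C1r protease, fell in males with fracture, from 17.1 to 27.1 CPM in resident to 11.2 to 17.9 CPM in repopulated libraries (log2 difference -0.65 ± 0.18 SE, edgeR adjusted p = 0.034). Among the others, C1ra, Cfp, Cr1l, C1qbp, Calr, Clu and Masp1 were listed in both tables and passed in neither, and C8g, Cfhr2 and Cd46 were listed in females only and did not pass.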

How the data were processed

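The authors deposited 1 table of estimated counts per transcript for 15 female and 1 for 17 male libraries. The submitters' processing notes name build GRCm38, the aligner STAR 2.7.6a and the transcript quantifier RSEM 1.3.1, among other trimming and quality tools, without saying what each step did. The tables hold 34865 and 28345 transcripts, each with at least 10 counts in at least 8 female or 9 male libraries, so a gene's rarer transcripts are outside its sum, and for Cfb 2 (female) or 3 (male) of 8 annotated transcripts were listed. One deposited column per table that belongs to no sample was not used. GENCODE M21 held 98.4% of the transcript IDs.

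Deposited estimated counts were summed by gene, and the sums were rounded for DESeq2 only. Each table was fitted apart over its 4 groups with edgeR 4.0.16 (quasi-likelihood, robust, TMM factors, filterByExpr, R 4.3.3), with Benjamini-Hochberg adjustment over all 13377 or 11999 genes and a call at 0.05. The SE of a log2 difference is its size divided by the square root of F. CPM are TMM-scaled, log2 CPM for correlations has a prior count of 2, and neighbours were ranked among genes with a mean of at least 5 CPM that are not predicted genes or pseudogenes. The fit was tested on simulated data. Total counts, 5722993 to 33697535, limit precision for genes of few counts. Alternatives were DESeq2 1.42.0, other scalings and filters, the most abundant transcript alone, only the groups compared, the replicate number as a block, the male identifier run as a term, and each library left out. By the naming rule all 10 members are described, alone or by the range of their group, and other complement genes where called. The members and lists were chosen with earlier results of these data known. No pair of libraries held identical values. A few genes that these rules would name are not reported here.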

Additional observations from a re-analysis of the deposited data

Results flagged for a closer look

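Among 50 combinations of member and group with 4 to 10 libraries, 2 held a library far from the others by Dixon's criterion at 95%, which chance meets in about 1 of 20 groups. C4b in male repopulated replicate 6 with fracture was at 242 CPM, and the next of the 7 libraries was at 103 CPM, a gap of 0.624 of the range. Cfb in male resident replicate 4 with fracture was at 33.8 CPM, and the next of the 5 libraries was at 6.19 CPM, a gap of 0.849 of the range.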

How the results depend on the processing

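Of the recomputed log2 differences of members, 1207 kept their direction and their side of the threshold, 43 lost a call, 24 gained one and 46 changed sign. The Itgb2 calls in males held under all 14 alternatives without and all 21 with fracture. In females without fracture 3 members passed, but none with library totals as the scaling or with only the groups compared (0 each), 1 with the replicate block, and 0 to 4 when each library was left out. Of all genes 209 were called higher and 129 lower there, 116 and 228 with library totals and 90 and 53 with the replicate block. Each library left out gave 51 to 612 of all genes in either direction. In females with fracture 1 passed, 2 with DESeq2, 2 at a minimum of 5 CPM, 3 with only the groups compared, 1 with the replicate block and 0 to 3 with each library left out. Of all genes, the minimum of 5 CPM called 213 higher and 158 lower in females with fracture. Only the groups compared gave 347 and 282, and the replicate block 108 and 76. With each library left out, 106 to 233 of all genes were called in either direction. In males without fracture 6 passed, 5 with the replicate block, with library totals or with only the groups compared (C1qa lost in each), 4 with the most abundant transcript (C1qa and Cfb lost) and 3 to 5 with each library left out. Of all genes 564 were called higher and 326 lower in males without fracture. With the replicate block these counts were 492 and 269, and with library totals 442 and 501. Only the groups compared gave 467 and 185, and the most abundant transcript 463 and 216. In males with fracture 1 passed, 4 with DESeq2, 2 with DESeq2 size factors, 2 at a minimum of 5 CPM, 2 with the most abundant transcript, 2 with only the groups compared, 3 with the identifier run as a term, 1 with the replicate block and 1 to 3 with each library left out. Of all genes, DESeq2 size factors called 377 higher and 218 lower in males with fracture, and a minimum of 5 CPM 388 and 237. The most abundant transcript gave 281 and 134, and only the groups compared 339 and 209. The identifier run as a term gave 326 and 186, and the replicate block 194 and 99. With each library left out, 400 to 716 were called in either direction. For the male fracture difference in repopulated microglia and the male interaction, where none passed, DESeq2 called 2 each. DESeq2 also called more of all genes. With fracture it called 511 higher and 332 lower in males, against 364 and 225 with edgeR. In females with fracture it called 358 and 336, against 170 and 145. In females without fracture, the fit of only the groups compared called 0 of all genes higher and 0 lower. The cause of the changes in member calls was not tested. Fits that leave libraries out also have fewer libraries, and this was not separated from the value of the library removed. Replicate numbers did not pair libraries: the median correlation of same-numbered libraries' deviations was -0.0117 over 21 female and -0.00987 over 17 male pairs, and 5 of 15 female and 0 of 17 male libraries correlated best with their own number.

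Sign changes concerned differences that passed no test. Under library totals the log2 difference was -0.0279 for C3ar1 and -0.0415 for C5ar1 (female repopulation with fracture), -0.0335 for Itgam (male repopulation with fracture), 0.00606 for C1qb (male resident fracture) and 0.0177 for C1qc (male repopulated fracture). With the most abundant transcript it was -0.167 for C5ar1 (female repopulation with fracture) and 0.00522 for C1qb (male resident fracture). With the identifier run as a term it was 0.0151 for C1qb and 0.0586 for C1qc (male repopulated fracture) and 0.0547 for C1qb (male resident fracture). With the replicate block it was -0.00853 for C1qb and -0.0671 for C4b (female repopulated fracture), 0.0111 for C1qb and 0.0671 for C1qc (male repopulated fracture), and 0.0461 for C1qb and 0.0492 for C3ar1 (male resident fracture). With each library left out, female fracture differences in repopulated microglia ran from -0.114 to 0.0371 for C1qa, from -0.0405 to 0.0751 for C1qb and from -0.590 to 0.264 for C4b, and in resident microglia from -0.112 to 0.0136 for Itgb2. Male ones in repopulated microglia ran from -0.316 to 0.0192 for C1qa, from -0.217 to 0.0960 for C1qb, from -0.190 to 0.129 for C1qc and from -0.143 to 0.457 for C5ar1, and in resident microglia from -0.100 to 0.155 for C1qb, from -0.0847 to 0.153 for C1qc, from -0.0629 to 0.0370 for C3ar1 and from -0.0372 to 0.184 for C5ar1. Repopulation differences ran from -0.063 to 0.0932 for C5ar1 in females with fracture, from -0.021 to 0.297 for C1qc and from -0.495 to 0.104 for C5ar1 in males without fracture, and from -0.0213 to 0.0662 for Itgam in males with fracture. With 2 male repopulated libraries without fracture and resident Cfb counts of 0, 14 and 25, the size of the largest differences is poorly fixed.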
